A study of Homo sapiens with 14 samples.

Results

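The S34F mutant of U2AF1 was compared with the wild-type protein, both expressed as isoform v1 in A549 cells, a human lung carcinoma line. The comparison rests on 4 of the 14 libraries of the series, the 2 titled as v1 S34F and the 2 titled as v1 wild type. In all 4, U2AF1 had first been knocked down with a siRNA, and the cells were then infected with a virus carrying the v1 construct, so the wild-type libraries are knockdown cells with an excess of U2AF1 and not untouched cells. The series also holds knockdown cells given the v3 isoform as S34F or wild type, knockdown cells with an empty vector, empty-vector cells with a control siRNA, and untreated cells, 2 libraries each. All were grown as adherent cultures, and total RNA was taken. The question was how the mutation changes splicing. The titles number the replicates 1 and 2 but do not state separate cultures, so p-values measure the spread between these libraries, which may be technical.

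U2AF1 is the small subunit of U2AF, the factor that recognises the 3′ end of an intron, called the acceptor here. The large subunit, U2AF2, binds the pyrimidine tract, and U2AF1 contacts the AG at the intron's end together with the bases around it. S34F is a recurrent mutation in myeloid neoplasms and lung adenocarcinoma. It lies in a zinc finger that contacts RNA, and it is known to shift splicing according to the base just before the AG, at position -3, away from acceptors with T there and towards acceptors with C or A.

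The acceptor sequences below show what moved. Each runs 5′ to 3′ with the last 3 bases of the intron in capitals, the first of them being position -3, and the exon begins after the capitals. They were read from GENCODE release 29 transcripts of another exon structure that cover these bases, with GRCh38 coordinates. The first 4 genes each hold an acceptor with T used less and an acceptor with C used more with S34F, and the other sites are single ones whose usage passed the adjusted threshold given further on.
FN1 T site, chr2:215372366-215372395, minus strand: ctctaacctctctcggcTAGacgagcttcc
FN1 C site, chr2:215372291-215372320, minus strand: cttggatgttccttccaCAGttcaaaagac
ARHGAP11A T site, chr15:32632959-32632988, plus strand: acatgtggttatttttgTAGttcacatcga
ARHGAP11A C site, chr15:32633043-32633072, plus strand: aaaccatttgatcactgCAGgtgtgccaag
ARL2BP T site, chr16:57249767-57249789, plus strand: atttctttggTAGaaaaatacat
ARL2BP C site, chr16:57252222-57252251, plus strand: caaatcatcttctctgcCAGcttcccagaa
FGG T site, chr4:154609754-154609783, minus strand: agtcgattctccttctcTAGattgtcaaga
FGG C site, chr4:154609778-154609807, minus strand: acctgcatttcaaaccaCAGtaaaagtcga
SECISBP2L T site, chr15:49019543-49019572, minus strand: cccctctggggtttactTAGgttggattca
KIAA0922 T site, chr4:153602132-153602161, plus strand: ctttttttggttcccatTAGaactgaaaga
SCAF4 C site, chr21:31685165-31685194, minus strand: tggaaatcccattccaaCAGtggtgtctgg
ISG20L2 C site, chr1:156727760-156727789, minus strand: aggatcactttcttcccCAGggtgtactac
LPHN2 C site, chr1:81987269-81987298, plus strand: atcttaatatattattaCAGgactgacatc
P4HA2 C site, chr5:132227249-132227278, minus strand: gaaagtcttttctccccCAGacatccttgt
HERC6 A site, chr4:88439854-88439883, plus strand: ttttttttgcttccctcAAGgagagactat

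U2AF1 itself stood at 2179.8 and 3852.2 FPKM (fragments per kilobase, corrected for the number mapped) in the v1 S34F libraries, replicates 1 and 2, and at 2350.8 and 2877.2 FPKM in the v1 wild-type libraries. The groups overlapped, and the log2 difference of 0.16 (SE 0.31, limma adjusted p = 0.93) became -0.25 without v1 S34F replicate 2. The knockdown with empty vector had 16.18 and 28.87 FPKM, and the control siRNA had 116.9 and 118.9 FPKM. The isoform ENST00000380276 made up 97.8% and 97.4% of the gene in v1 S34F and 97.9% and 97.1% in v1 wild type, against 1.10% to 1.44% in the 4 v3 libraries. In the 4 v3 libraries ENST00000291552 made up 95.11% to 95.55%. The dominant U2AF1 isoform thus differs between the libraries titled v1 and those titled v3, while the sequences of the constructs were not checked. FPKM does not separate mutant from wild-type transcripts, or the construct from the endogenous gene, so the mutation itself was not checked.

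The v1 S34F replicate 2 stood apart from the other v1 libraries. It had the lowest relative depth of the 14, 0.798, against 0.981 in v1 S34F replicate 1 and 1.028 and 1.057 in v1 wild type. An AL132768.1 isoform of 75 bases held 33.1% of its summed FPKM, and without that isoform the sum was 630697. On the first principal component of log2 expression, with 30.7% of the variance, it lay at 48.4, against 2.8 for v1 S34F replicate 1 and -12.6 and 13.2 for v1 wild type. On that component v3 S34F replicate 2 lay near it at 38.7, against -1.6 for v3 S34F replicate 1 and -12.9 and 15.1 for v3 wild type, so both S34F libraries numbered 2 were at the same end. Replicates were correlated across genes at r = 0.965 in v1 S34F and 0.977 in v1 wild type, where genes are not independent points. All 8 A549 epithelial markers reached the minimum mean of 1 FPKM, against 1 of 6 fibroblast markers (COL1A1) and 1 of 6 leukocyte and endothelial markers (CD14). The fibroblast markers summed to 6.99 to 10.2 FPKM over the 4 v1 libraries with 1 member at 0 in all 4, and the leukocyte and endothelial markers to 1.36 to 2.43 FPKM with 2 members at 0. Absolute read numbers are unknown, since the files hold no counts. The main counts and some of the named genes and sites are given below with and without v1 S34F replicate 2. For the other named genes, sites and isoforms only values with all libraries are given.

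Acceptor usage, the summed FPKM of the isoforms using an acceptor as a percent of that of the isoforms spanning it, moved with the base at -3. Among the 31388 acceptors with variable usage, the base was read for 52.4%, and 16340 of these ended in AG. Acceptors with T at -3 had a median change of -2.80 points with S34F, and usage lay below the wild type at 67.9% of 3532. Acceptors with C had a median change of 0.46 points and 46.0% of 11171 below, acceptors with A had 1.48 points and 39.6% of 1313 below, and acceptors with G had -0.71 points and 55.9% of 324 below. Mean usage over the acceptors with T was 61.86% and 56.94% in v1 S34F replicates 1 and 2, against 64.84% and 61.39% in v1 wild type. The S34F library was the lower one at each replicate number, while the groups as a whole overlapped. Mean usage over the acceptors with C was 60.28% and 57.59% in v1 S34F and 59.69% and 56.71% in v1 wild type. Without v1 S34F replicate 2 the median change was -0.61 points for T and 1.92 points for C, and without v1 S34F replicate 1 it was -5.02 points for T and -0.65 points for C. Under both settings T stayed below C.

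Single acceptors that changed by 5 points or more at an unadjusted p under 0.01 numbered 1096, or 3.49% of those tested, and their direction differed by base. Of the acceptors with T, 120 (3.40%) were used less and 20 (0.566%) were used more. Of those with C, 53 (0.474%) were used less and 150 (1.34%) were used more. Of those with A, 7 (0.533%) were used less and 31 (2.36%) more, and of those with G, 3 (0.926%) were used less and 0 more. Taken 1 per gene, the losses with T came from 106 genes at a median of -22.41 points, and the gains with C from 121 genes at a median of 20.87 points. Gains with A came from 26 genes, with a median of 20.77 points. The counts depend on the libraries. Acceptors with T used less numbered 58 without v1 S34F replicate 2 and 203 without v1 S34F replicate 1, and 181 with the replicate number as a block. Acceptors with C used less numbered 50, 120 and 93 under the same settings. With a block as without it, losses with T outnumbered gains with T, and gains with C outnumbered losses with C.

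**Figure D1:**
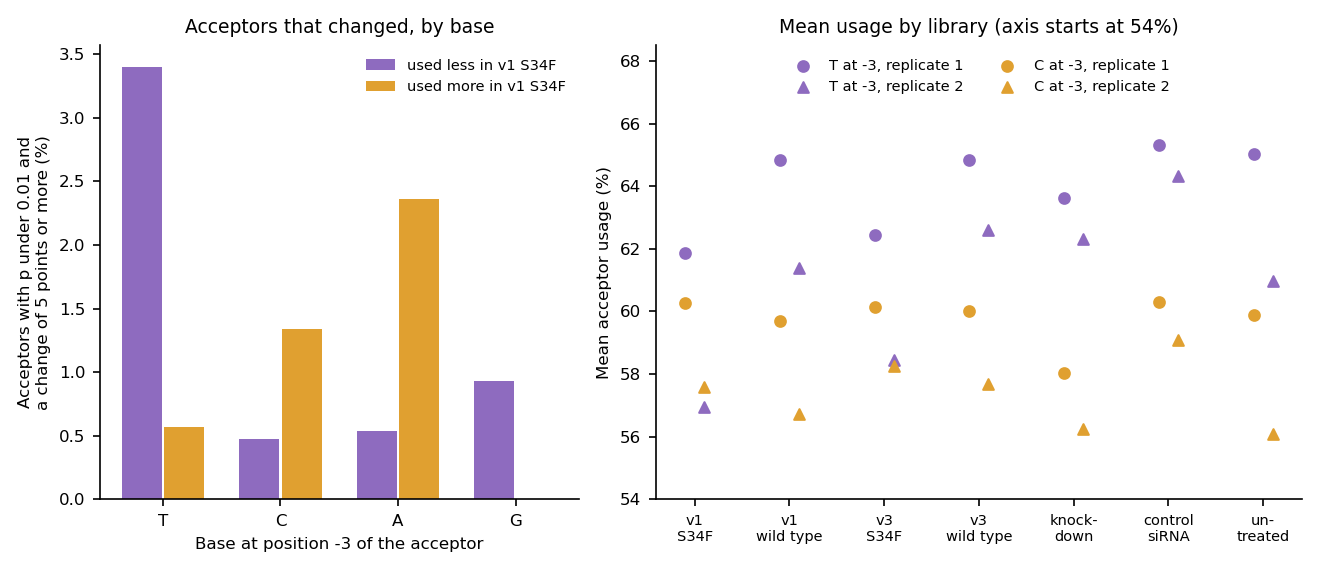
Acceptor usage in v1 by the base at position -3. The left panel gives, as a percent of the acceptors with each base, those used less and used more with S34F (unadjusted p under 0.01 and at least 5 points), and the right panel gives the mean usage in percent in each library on an axis that starts at 54%. Losses stand at 3.40% and gains at 0.566% for T, against 0.474% and 1.34% for C, and the mean usage of acceptors with T is lower with S34F at each replicate number.

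After adjustment over all acceptors, 44 of 31388 (0.140%) passed in 34 genes, 27 used less (0.0860%) and 17 used more (0.0542%). The 17 whose base was read were 6 with T (0.170% of those tested with T), all used less, 10 with C (0.0895%), all used more, and 1 with A (0.0762%), used less. Of the 44, 40 changed in the same direction in v3, and the share of all acceptors that did so is not given here. The calls rest on all 4 libraries. Without v1 S34F replicate 1, 22 of the 44 were still called. Without v1 wild-type replicate 1 it was 2, and without v1 S34F replicate 2 or v1 wild-type replicate 2 it was 0, where the lone library of a group is assumed to vary like the other groups. The change at the FN1 site with T was -39.3 points without v1 S34F replicate 2, beside -40.2 points with all libraries.

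The FN1 sites lie 75 bases apart in the gene of fibronectin, an extracellular matrix protein with many splice forms. The site with T was used at 35.09% and 33.24% in v1 S34F, against 77.3% and 71.43% in v1 wild type (-40.2 points, SE 5.2, limma adjusted p = 0.032). The site with C was used at 50.18% and 47.97% in v1 S34F, against 18.16% and 14.57% in v1 wild type (32.7 points, SE 3.6, adjusted p = 0.031). Both S34F libraries lay below both wild-type ones at the first site and above them at the second, and no library of the groups without S34F reached the S34F values at the site with C, where the untreated cells had 30.6% and 24.99%. In v3 the same sites moved by -16.9 and 12.1 points.

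ARHGAP11A, a GTPase-activating protein that acts in cytokinesis, had its 2 sites 84 bases apart. The site with T was used at 68.52% and 64.09% in v1 S34F, against 93.1% and 92.61% in v1 wild type (-26.6 points, SE 3.1, adjusted p = 0.031). The site with C was used at 28.7% and 29.19% in v1 S34F, against 6.154% and 4.376% in v1 wild type (23.7 points, SE 2.8, adjusted p = 0.031). These are well-expressed sites, with a mean of 77.1 FPKM over the isoforms that span them, and v3 moved by -16.9 and 15.8 points.

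ARL2BP, a partner of the small GTPase ARL2, had the widest shift among the sites shown above. Its site with T was used at 0.00044% and 11.24% in v1 S34F, against 89.6% and 88.65% in v1 wild type (-83.5 points, SE 10.6, adjusted p = 0.031). The site with C lies 2462 bases away and mirrors it, since these percents come from a pair of isoforms, which also give the other called sites of this gene. Use of the site with T varied widely outside v1, at 56.56% and 40.03% in v3 S34F, 39.25% and 64.11% in v3 wild type and 50.95% to 100% in the other libraries. The v3 change was -3.4 points, and the difference between the constructs missed the threshold (-80.1 points, adjusted p = 0.60).

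FGG, the fibrinogen gamma chain, had 2 sites 24 bases apart. The site with T was used at 62.84% and 0.7103% in v1 S34F, against 100% and 100% in v1 wild type. The change of -68.2 points (SE 15.5) did not pass the adjustment (adjusted p = 0.14). Most of the shift was in replicate 2, since the change was -99.3 points without v1 S34F replicate 1 and -37.2 points without v1 S34F replicate 2. The v3 libraries stayed between 86.76% and 99.96%. All libraries without S34F lay at 86.76% to 100%. The FGG sites may therefore have met the limits on mean usage only through S34F libraries.

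Across the data, 117 genes held an acceptor with T used less and 142 held one with C used more by the unadjusted rule. There were 17 genes with both, against 1 gene with the reverse pair. The reverse pair could form from fewer sites, 20 with T used more and 53 with C used less, against 120 and 150. No expected number of pairs was computed, so these counts do not measure an excess. In 13 of the 17 the sites lay within 200 bases of each other. In 16 of 17 the site with T also lay lower with S34F in v3, and in 16 of 17 the site with C also lay higher there, with FGG the exception in each. CCNB1, the mitotic cyclin B1, had sites 52 bases apart. Its site with T was used at 66.82% and 57.62% in v1 S34F, against 87.34% and 78.24% in v1 wild type, and its site with C at 18.34% and 16.15%, against 7.488% and 7.149%. CHKB, choline kinase beta, had sites 28 bases apart that moved by -30.3 and 28.6 points. IMMT, a protein of mitochondrial cristae, had sites 33 bases apart that moved by -17.0 and 19.0 points. FDPS, farnesyl diphosphate synthase of the mevalonate pathway, had sites 21 bases apart at -35.3 and 24.7 points, where v3 moved by only -10.6 and 0.8 points. ZMIZ2, a transcriptional coactivator, had -35.1 and 35.1 points at sites 96 bases apart. These pairs were counted from the same unadjusted rule, and of the 17 genes only FN1, ARHGAP11A and ARL2BP passed the adjusted threshold at both sites.

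The single sites with T or C that were called moved in the same directions in v1, but not all did in v3. SECISBP2L, related to a selenoprotein synthesis factor, used its site with T at 59.55% and 56.27% in v1 S34F, against 84.89% and 87.13% in v1 wild type (-28.1 points, SE 3.7, adjusted p = 0.035). SCAF4, which binds the tail of RNA polymerase II, used its site with C at 42.83% and 50.21% in v1 S34F, against 16.09% and 19.52% in v1 wild type (28.7 points, SE 3.5, adjusted p = 0.031, 28.5 points in v3). ISG20L2, a nuclease of ribosome biogenesis, used its site with C at 59.91% and 56.48% in v1 S34F, against 31.57% and 25.2% in v1 wild type (29.8 points, SE 3.5, adjusted p = 0.031). In all of these both S34F libraries lay outside the range of the wild-type libraries. LPHN2, an adhesion receptor of the latrophilin family, gained 37.5 points and 18.9 points in v3. P4HA2, a collagen prolyl hydroxylase subunit, used its site with C at 32.62% and 31.3% in v1 S34F, against 4.053% and 7.138% in v1 wild type (26.4 points, adjusted p = 0.042, 0.053 with the replicate block). P4HA2 did not follow in v3, at -0.3 points, and the difference between constructs was 26.7 points (unadjusted p = 0.00057, adjusted p = 0.66). KIAA0922 had -30.3 points at its site with T in v1 and -3.9 points in v3. ODF3B used its site with C at 60.22% and 65.64% in v1 S34F, against 31.08% and 26.23% in v1 wild type. It gained 34.3 points in v1 (adjusted p = 0.035) but moved by -16.0 points in v3. Its difference between constructs was 50.3 points (unadjusted p = 2.8e-05, adjusted p = 0.13). PLXNB3 used its called sites with C at 100% in both v1 S34F libraries, against 70.58% and 69.44% in v1 wild type. It moved by 19.4 points in v3. HERC6, a ubiquitin ligase of the HERC family, fell by 25.6 points at a site with A, where v1 S34F had 74.03% and 74.82% and v1 wild type had 100% and 100%. All libraries without S34F used this site at 96.54% or more, above the upper limit of 95 percent on mean usage. It was thus tested only through S34F libraries, and its being called supports nothing by itself. The KIAA0922 site stood at 89.87% to 100% without S34F, so the same may hold there.

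**Figure D2:**
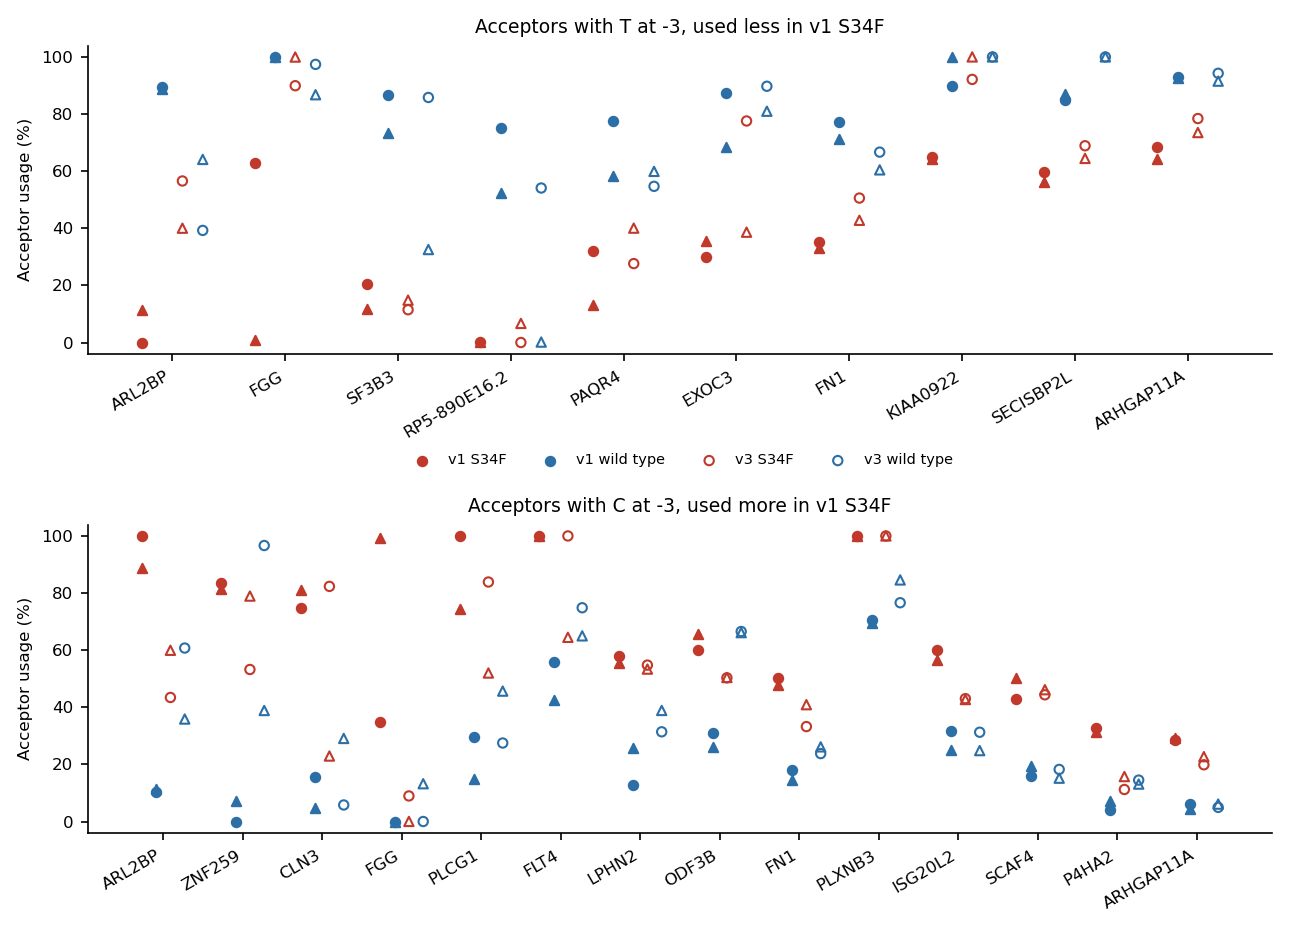
Usage in percent of acceptors named in the text, with sites with T above and sites with C below. Red is S34F and blue wild type, circles are replicate 1 and triangles replicate 2, filled for v1 and open for v3. FN1, ARHGAP11A, SECISBP2L and SCAF4 separate S34F from wild type in both constructs, whereas the v3 symbols of ARL2BP and FGG overlap.

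The largest unadjusted shifts also included sites that did not pass the adjustment. With T, SF3B3, a subunit of the U2 particle, had 20.34% and 11.67% in v1 S34F, against 86.57% and 73.41% in v1 wild type (-64.0 points, adjusted p = 0.15). PAQR4 had -45.4 points, EXOC3, a subunit of the exocyst, had -45.2 points, and a site in a clone-named gene had -63.7 points. With C, ZNF259 had 83.69% and 81.55% in v1 S34F, against 0.00029% and 7.227% in v1 wild type (79.0 points, adjusted p = 0.16), but v3 S34F had 53.24% and 78.95% against 96.65% and 38.88% in v3 wild type. CLN3, a lysosomal membrane protein, had 67.8 points, PLCG1, phospholipase C gamma, had 65.0 points, and FLT4, the receptor of lymphatic vessel growth, had 50.8 points. The v3 changes kept the direction at SF3B3, PAQR4, EXOC3, CLN3, PLCG1 and FLT4, with -46.0, -23.5, -27.3, 35.2, 31.4 and 12.3 points. The spread between libraries outside v1 was wide at several of these sites, most of which belong to isoforms of low FPKM.

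A list of 24 genes, chosen as known splicing targets of mutant U2AF1, was examined at the level of acceptors, isoforms and genes. The list was drawn up with earlier results of these data known, and sites of a gene share isoforms. Its shares below are therefore descriptive and not independent support. Of its 102 acceptors tested, 32 (31.4%) had an unadjusted p under 0.05, where 9.62% of all acceptors did, and 0 passed the adjustment by limma. Of its 105 isoforms, 22 (21.0%) had an unadjusted p under 0.05, where 8.24% of all isoforms did. BCOR, a transcriptional corepressor mutated in leukaemia, used an acceptor with C at 89.79% and 83.92% in v1 S34F, against 46.58% and 39.52% in v1 wild type (43.8 points, SE 6.8, adjusted p = 0.060, 33.4 points in v3). FXR1, an RNA-binding paralogue of the fragile X protein, had 17.8 points at an acceptor whose base was not read (45.94% and 47.75% in v1 S34F, against 28.35% and 29.78% in v1 wild type, adjusted p = 0.068). KDM6A, a histone demethylase, had 48.71% and 48.98% in v1 S34F at an acceptor with 99.96% and 78.54% in v1 wild type (-40.4 points, adjusted p = 0.12), where v3 moved by 2.3 points. ZFAND1 had 21.4 points and DEK, a chromatin protein, had -25.8 points at their leading acceptors, at adjusted p of 0.085 and 0.13. STRAP had 64.11% and 27.5% in v1 S34F, against 97.76% and 86.27% in v1 wild type. Some other members moved less at their leading acceptors, such as KMT2D (4.0 points) and PTBP1 (-5.1 points). At the level of whole genes 0 of the 24 were called, and 3 had an unadjusted p under 0.05.

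For gene expression, 25 of 14233 genes (0.176%) were called at an adjusted p under 0.05 by limma, 21 lower (0.148%) and 4 higher (0.0281%), and 1413 (9.93%) had an unadjusted p under 0.05, 786 lower (5.52%) and 627 higher (4.41%). The lower genes stood at 27.7% to 57.2% of their v1 wild-type FPKM, and 15 of the 21 were at 50% or below. They include the condensin II subunit NCAPG2, the U2AF partner subunit U2AF2, the cap-binding protein NCBP1, and the cell cycle genes CCNA2, TOP2A, CENPK and PBK. In 21 of the 21 both v1 S34F libraries lay below all 10 libraries of the series without S34F, as they did in 6.16% of all genes tested. The 21 were chosen by their low values in these same v1 S34F libraries. Among the 4 higher genes both lay above all 10 for GUCA1B, CNTF and STARD13-AS, as in 5.41% of all genes, but not for CSNK2B-LY6G5B-1181. The pairing of libraries by replicate number matters here. With the number as a block 309 genes (2.17%) were called, 229 lower (1.61%) and 80 higher (0.562%), and the 309 held all 25. Without v1 S34F replicate 2, 2 of the 25 were still called, NCAPG2 and HACL1, against 16 without v1 S34F replicate 1. NCAPG2 was the 1 still called without v1 wild-type replicate 1 and without v1 wild-type replicate 2.

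NCAPG2 (ENSG00000146918, chromosome 7, 158424003 to 158497520, GRCh37) organises mitotic chromosomes as part of condensin II. It had 12.14 and 11.28 FPKM in v1 S34F, against 35.76 and 37.52 FPKM in v1 wild type. Both S34F libraries lay at about 32.0% of the wild-type mean (log2 -1.57, SE 0.12, adjusted p = 0.00055, 0.0021 to 0.0075 with 1 v1 library left out). The 6 libraries without a U2AF1 construct had 44.46 to 54.25 FPKM. Part of what remained was annotated as unproductive, meaning subject to nonsense-mediated decay or holding an intron, at 16.88% and 27.77% of the gene's FPKM in v1 S34F, against 3.908% and 4.289% in v1 wild type. One of its acceptors was used at 13.71% and 32.36% in v1 S34F, against 3.294% and 0.8741% in v1 wild type (unadjusted p = 0.0096, adjusted p = 0.28).

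U2AF2 (ENSG00000063244, chromosome 19, 56165512 to 56186081, GRCh37), the large U2AF subunit, had 105.7 and 116.5 FPKM in v1 S34F, against 225.4 and 237.7 FPKM in v1 wild type. Its level thus stood at 48.0% of wild type (log2 -1.05, SE 0.14, adjusted p = 0.021, and 0.13 without v1 S34F replicate 2), and the groups did not overlap. The empty-vector knockdown had 273.3 and 340.2 FPKM, the control siRNA 172.5 and 226.5, and untreated cells 203.6 and 216.7. Its isoforms annotated as productive summed to 93.26 and 80.51 FPKM in v1 S34F, against 206.8 and 208.0 FPKM in v1 wild type. The unproductive share was 11.75% and 30.9%, against 8.262% and 12.49%, which overlap. Of the 26 genes of the splice site recognition list, U2AF2 was the 1 called, and the median of the list was 0.04 beside 0.02 for all genes. RBM39 and CHERP, spliceosome-associated proteins, had log2 values of 0.25 and 0.36 (adjusted p = 0.42 and 0.46).

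CCNA2 (ENSG00000145386, chromosome 4, 122737599 to 122745087, GRCh37), cyclin A2 of S phase and mitosis, had 19.39 and 16.49 FPKM in v1 S34F, against 35.62 and 41.64 FPKM in v1 wild type. This is 46.4% of wild type (log2 -1.07, SE 0.13, adjusted p = 0.021, 0.15 without v1 S34F replicate 2). All other libraries without S34F were between 36.25 and 47.86 FPKM. TOP2A, the topoisomerase that untangles replicated chromosomes, had 103.0 and 84.71 FPKM in v1 S34F, against 186.9 and 183.9 FPKM in v1 wild type (log2 -0.98, SE 0.13, adjusted p = 0.021). CENPK, a kinetochore protein, had 23.76 and 17.79 FPKM in v1 S34F, against 44.57 and 46.49 FPKM in v1 wild type (log2 -1.11, adjusted p = 0.021). WDHD1, a replication fork protein, had 12.5 and 11.51 FPKM in v1 S34F, against 26.08 and 26.34 FPKM in v1 wild type (log2 -1.07, adjusted p = 0.024). In bulk RNA, fewer cells in the phases that express such genes and less RNA per cell cannot be told apart.

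HACL1 (ENSG00000131373, chromosome 3, 15602211 to 15643338, GRCh37), a lyase of peroxisomal alpha-oxidation, had 9.407 and 11.03 FPKM in v1 S34F, against 22.08 and 22.96 FPKM in v1 wild type (log2 -1.07, SE 0.12, adjusted p = 0.015). The knockdown with empty vector was also low, at 14.33 and 13.0 FPKM, with the v1 S34F libraries still below it. NCBP1, the large subunit of the nuclear cap-binding complex, had 11.36 and 10.3 FPKM in v1 S34F, against 26.17 and 22.95 FPKM in v1 wild type (log2 -1.11, adjusted p = 0.021). HNRNPUL2, of the hnRNP U family, had a log2 change of -1.08 (adjusted p = 0.021). TPCN1, an ion channel of endosomes and lysosomes, TDRP, CNTN1, a cell adhesion molecule of neurons, and MEF2BNB had log2 changes of -1.23, -1.14, -1.06 and -1.06. PSPC1P1 had a log2 change of -1.42, but its name marks a pseudogene of PSPC1, with which it can share reads. The other called genes fall outside the rule for naming genes and are named because they were called. SLK, a kinase of the Ste20 group, KIAA1524, an inhibitor of the phosphatase PP2A, SNX14, a sorting nexin, PNPT1, the mitochondrial polynucleotide phosphorylase, FANCI of the Fanconi anemia pathway, BICC1, an RNA-binding protein, and PBK, a mitotic kinase, had log2 changes of -1.05, -0.98, -0.93, -0.89, -0.89, -0.81 and -0.80.

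The 4 higher genes had low wild-type levels. GUCA1B, a guanylate cyclase activator known from the retina, had 6.058 and 10.46 FPKM in v1 S34F, against 1.094 and 0.8281 FPKM in v1 wild type (log2 2.20, SE 0.32, adjusted p = 0.026). CNTF, a neurotrophic cytokine, had 4.401 and 6.703 FPKM in v1 S34F, against 0.9682 and 0.8647 FPKM in v1 wild type (log2 1.75, SE 0.24, adjusted p = 0.021). Neither pair of groups overlapped, and v3 moved by 1.88 and 1.60 on the log2 scale. CSNK2B-LY6G5B-1181, with a log2 change of 1.86, is a readthrough that overlaps 2 other genes, and STARD13-AS, with 1.56, is an antisense transcript. Whether counting used strand is not given in the sources used here, so reads of both may belong to overlapping genes. STARD13-AS reached the minimum mean of 1 FPKM only through S34F libraries, with a mean of 1.06 FPKM over all 14 libraries and 0.389 FPKM over the 10 without S34F, so its being called supports nothing by itself. It was not called with a pseudocount of 0.1 (adjusted p = 0.19).

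**Figure D3:**
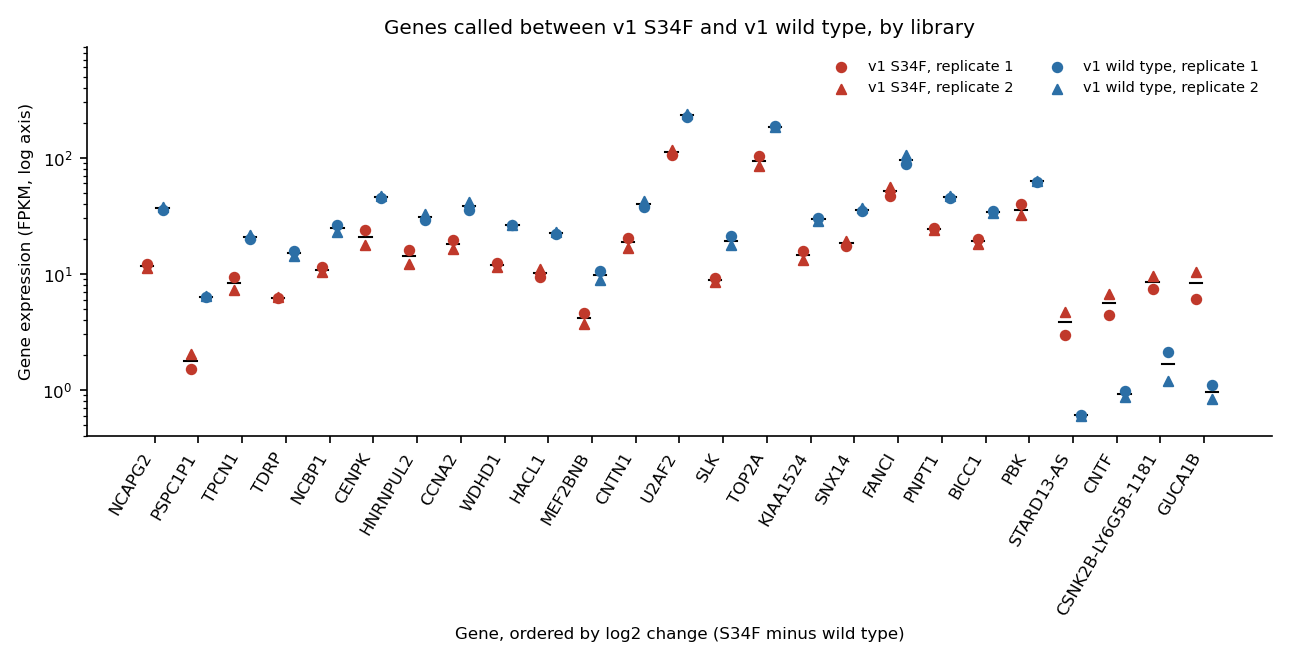
FPKM per library, on a log axis, of the 25 genes called in v1, ordered by log2 change, with v1 S34F (red) left of v1 wild type (blue). Circles are replicate 1, triangles replicate 2, and horizontal bars group means. NCAPG2 lies at 11.28 to 12.14 in v1 S34F and 35.76 to 37.52 in v1 wild type.

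Isoforms annotated as unproductive were summed over 8147 genes. They held 13.84 ± 2.83% of FPKM in v1 S34F and 13.01 ± 1.90% in v1 wild type (SD, n = 2 each), with 11.84% and 15.84% in the S34F libraries and 11.66% and 14.35% in the wild-type libraries. The groups overlapped, and the difference of 0.83 points had p = 0.667 by an exact two-sided permutation test, which cannot go below 0.333 with 2 against 2. Leaving out 1 library gave -1.17 to 2.83 points, and the sign turned without v1 S34F replicate 2 (-1.17) and without v1 wild-type replicate 1 (-0.51). Replicate 2 had the higher share in all 7 groups, so leaving out 1 library also left the replicate numbers uneven. At each replicate number the share was higher with S34F in v1. The same held in v3, with 12.06% against 11.39% and 14.59% against 13.69%. A paired test was not run. Of the 21 lower genes, 16 had unproductive isoforms, and their share was higher in both v1 S34F libraries than in both wild-type ones in 5. Among all called genes with such isoforms, 17 in number, it was lower in both in 4. Over all genes these shares were 16.8% higher and 12.7% lower. Apart from NCAPG2, the higher ones include HACL1, with 44.29% and 53.91% in v1 S34F, against 20.68% and 37.72% in v1 wild type, and FANCI, with 36.73% and 64.65%, against 16.6% and 28.55%.

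The v3 isoform carries the same mutation in libraries of its own, so the v3 comparison shares no library with v1, although the replicate numbers are shared. All 21 genes lower in v1 and all 4 higher in v1 lay in the same direction in v3. Among the 4, STARD13-AS reached the expression minimum only through S34F libraries, those of v3 included, so its direction in v3 supports nothing. The share of all genes with the same direction in both is not given here, so these counts do not measure an excess. The median log2 change of the lower genes was -1.06 in v1 and -0.80 in v3, and that of the higher genes 1.80 in v1 and 1.54 in v3. The v1 change was the larger one in 23 of 25, which were chosen for their size in v1. By itself v3 had 3 genes called (0.0211%). Over all 14233 genes, which are not independent points, the changes had r = 0.52, and for isoform usage r = 0.26. No gene passed the test of the difference between the constructs by limma, and 101 (0.710%) had an unadjusted p under 0.05. Of the acceptors, 5 (0.0159%) passed it, 4 of them in CMSS1 with a lower change in v1 than in v3 (0.0127%) and 1 in KLHL22 with a higher change in v1 (0.00319%), and 1017 (3.24%) had an unadjusted p under 0.05.

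CCNA2 and CDK2, which encode a cyclin and its kinase partner, were among the 4 genes with the smallest p in the gene test of that difference, when genes with clone-type symbols or with no isoform of at least 300 bases were left out. CCNA2 had 30.01 and 24.99 FPKM in v3 S34F, against 37.27 and 36.25 FPKM in v3 wild type, a log2 change of -0.41 beside -1.07 in v1 (difference -0.65, SE 0.19, unadjusted p = 0.0048, adjusted p = 1). CDK2 had 28.94 and 27.94 FPKM in v1 S34F, against 40.31 and 46.9 FPKM in v1 wild type (log2 -0.60, adjusted p = 0.070, 0.020 with the replicate block). In v3 it had 35.65 and 38.91 FPKM with S34F, against 35.52 and 35.53 FPKM with wild type (log2 0.07, difference -0.66, unadjusted p = 0.0015). Both genes were lower in both v1 S34F libraries than in any of the 4 v3 libraries. The other 2 under this limit were BCL2L15 and GOLGA8N, at low FPKM, with log2 changes of -0.31 and 0.64 in v1 and 0.95 and -0.70 in v3. Of the called genes, CNTN1, CENPK and PBK also had an unadjusted p under 0.05 for the difference, at 0.015, 0.028 and 0.048. The called genes were chosen for their change in v1, which favours a larger change there, so these p-values are no separate support. Over all genes 0.71% had such a p, and neither CDK2 nor these genes passed the adjusted threshold. U2AF2 and HACL1 had log2 changes of -1.01 and -1.09 in v3, close to those in v1.

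**Figure D4:**
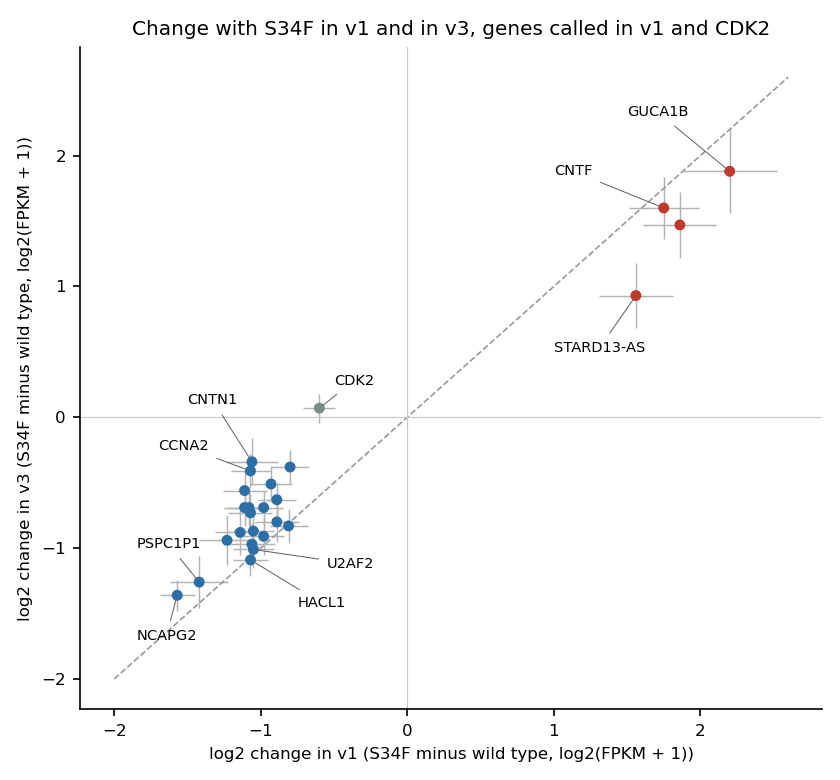
Log2 change with S34F in v1 (horizontal axis) and in v3 (vertical axis) for the 25 genes called in v1 and CDK2, on the log2(FPKM + 1) scale, with bars of 1 SE. Blue points are lower and red points higher in v1, CDK2 is grey, and the dashed line marks equal changes. U2AF2 and HACL1 lie at or near the line, and CCNA2 (-1.07 and -0.41), CNTN1 (-1.06 and -0.34) and CDK2 (-0.60 and 0.07) lie above it.

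For the usage of whole isoforms, as a percent of the gene's FPKM, 1 of 41727 (0.0024%) was called, and 3437 (8.24%) had an unadjusted p under 0.05. It was ENST00000569423 of UBE2Q2, a ubiquitin-conjugating enzyme, with 63.79% and 66.62% in v1 S34F, against 27.58% and 28.19% in v1 wild type (37.3 points, SE 2.8, adjusted p = 0.011). In v3 it had 46.72% and 48.34% with S34F, against 16.49% and 15.4% with wild type. With an arcsine transform its adjusted p was 0.063.

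When isoforms of genes under a mean of 5 FPKM were left out, 43 of 32483 (0.132%) were called in 38 genes, 28 used more (0.0862%) and 15 used less (0.0462%). Apart from UBE2Q2, their adjusted p over all isoforms lay between 0.055 and 0.097. Of the 43, 40 moved in the same direction in v3 and 41 moved further in v1, which is where they were selected. The share of all isoforms with the same direction is not given here. The isoforms named from here on were chosen after their values were seen, and their adjusted p is the one over the genes of at least 5 FPKM. PLK4, the kinase of centriole duplication, used ENST00000513090 at 35.89% and 42.17% in v1 S34F, against 0.00013% and 2.639% in v1 wild type (37.7 points, adjusted p = 0.021, 20.4 points in v3). ANLN, the cytokinesis scaffold anillin, used ENST00000265748 at 27.91% and 28.55% in v1 S34F, against 58.31% and 57.54% in v1 wild type, and ENST00000396068 at 52.18% and 52.83%, against 22.69% and 26.44% (adjusted p = 0.025 for each). CEP192, of the centrosome, used ENST00000506447 at 14.27% and 5.355% in v1 S34F, against 46.8% and 48.66% in v1 wild type. MELK, a mitotic kinase, and HJURP, the chaperone of the centromeric histone CENP-A, each used 1 isoform more, by 29.5 and 22.0 points. The limits on mean usage ran over all 14 libraries, S34F ones included. In the wild-type, knockdown and control siRNA libraries the PLK4 isoform lay at 0% to 10.15% and that of HJURP at 0.4952% to 7.597%. Both may have passed the lower limit only through S34F libraries, so their being called supports nothing by itself.

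SCAF4 used ENST00000399804 at 42.08% and 46.46% in v1 S34F, against 15.62% and 18.3% in v1 wild type (27.3 points, adjusted p = 0.021, 26.6 points in v3). HNRNPM, an hnRNP, used ENST00000325495 at 42.43% and 39.32% in v1 S34F, against 59.93% and 60.08% in v1 wild type. FIP1L1, of the polyadenylation complex, gained 19.0 points at 1 isoform. GDI2, which recycles Rab GTPases, exchanged ENST00000380191 for ENST00000447751, at -24.8 and 24.5 points, and CRYZ, a quinone oxidoreductase, exchanged ENST00000340866 for ENST00000370871, at -31.9 and 24.1 points. SMOX, the spermine oxidase, used ENST00000339123 at 6.8e-05% and 0.0014% in v1 S34F, against 19.96% and 17.82% in v1 wild type, and the isoform was near 0 in v3 S34F as well, with 0.0032% and 0.1061%. In each of these genes the v3 change had the same sign.

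A few isoforms moved in v1 and not, or the other way, in v3. P4HA2 used ENST00000379086 at 31.69% and 26.27% in v1 S34F, against 4.018% and 5.939% in v1 wild type, and v3 moved by -0.8 points. LRRC57 used ENST00000397130 at 51.98% and 37.45% in v1 S34F, against 82.81% and 79.24% in v1 wild type, with 10.1 points in v3. In the test of the difference no isoform was called by limma, and 1295 (3.10%) had an unadjusted p under 0.05. The 4 with the smallest p, apart from genes with clone-type symbols, were in C16orf46, AAMDC, ERV3-1 and GOLGA8N, with 21.9, 9.7, -7.4 and 35.7 points in v1 and -25.9, -28.1, 29.8 and -62.1 points in v3 (adjusted p = 0.47 for each).

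The called genes CCNA2, TOP2A, NCAPG2 and CENPK belong to lists of cell cycle genes. Over all genes 46.6% lay below wild type, which is the share to set beside the counts of the lists. Of 34 mitotic cyclins, kinases and cytokinesis genes, 24 lay below wild type, at a median log2 change of -0.07 beside 0.02 over all genes, and CCNA2 and TOP2A were called. With the replicate block BUB1B, a spindle checkpoint kinase, and CDC25B, an activating phosphatase, were also called, at -0.67 and -0.57. The block called 1.61% of all genes as lower and 0.562% as higher, against 0.148% and 0.0281% without it. Of 42 centromere, kinetochore and condensin genes, 29 lay below, at a median of -0.10, and NCAPG2 and CENPK were called. With the block OIP5, a factor of centromere assembly, was called at -1.73, and CENPH was called as higher at 0.61. Of 49 genes of G1/S and DNA replication 39 lay below, at a median of -0.13, and 0 were called by limma, with 11 lower and 0 higher at an unadjusted p under 0.05, where 5.52% of all genes were lower and 4.41% higher. With the block 3 were called as lower, RRM1 and CDK2 among them, where 1.61% of all genes were called as lower. RRM1, a ribonucleotide reductase subunit, had 54.4 and 43.57 FPKM in v1 S34F, against 76.82 and 84.14 FPKM in v1 wild type (log2 -0.71, adjusted p = 0.068, 0.016 with the block). CDK2 had a log2 change of -0.60. With 1 v1 library left out the medians of these 3 lists ranged from -0.12 to -0.04, from -0.16 to -0.01 and from -0.29 to -0.05. In v3 they were -0.07, 0.01 and -0.02. Among 29 DNA repair and Fanconi anemia genes FANCI was called, at a median of -0.01.

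Cholesterol biosynthesis genes lay above wild type in 19 of 21, at a median log2 change of 0.34, which was 0.16 to 0.55 with 1 v1 library left out. None was called by limma over all genes, and 8 were higher and 0 lower at an unadjusted p under 0.05, beside 4.41% and 5.52% of all genes. INSIG1, a sterol-regulated brake on the pathway, had 38.02 and 32.41 FPKM in v1 S34F, against 19.7 and 14.57 FPKM in v1 wild type (log2 1.01, adjusted p = 0.11, 0.033 with the block). MVK, mevalonate kinase, had 16.57 and 19.71 FPKM in v1 S34F, against 9.768 and 9.657 FPKM in v1 wild type (log2 0.83, adjusted p = 0.18, 0.037 with the block). In these 2 genes the groups did not overlap, and in v3 they moved by 0.90 and 0.60, with a list median of 0.27.

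Among 25 genes of peroxisomal lipid metabolism HACL1 was called, and with the block ABCD3, a peroxisomal transporter, and ACOX2, an oxidase of bile acid intermediates, at -0.72 and -1.17, while the list median was -0.02. Over all genes 1.61% were called as lower and 0.562% as higher with the block. Of 18 interferon-stimulated genes 10 lay above and 8 below wild type, at a median of 0.08, where 46.6% of all genes lay below. With the block 1 of them was called as lower. The list summed to 206.5 and 204.3 FPKM in v1 S34F, against 290.7 and 270.7 FPKM in v1 wild type. Of 22 autophagy genes ATG10, a conjugating enzyme of autophagosome formation, was called as lower with the block, at -0.83, while 16 lay above wild type at a median of 0.23. Among 17 hnRNP genes HNRNPH3 was called as higher with the block, at 0.78 (332.9 and 298.9 FPKM in v1 S34F, against 197.1 and 170.1 FPKM in v1 wild type), at a list median of -0.04. Among 24 mesenchymal and TGF-beta response genes CTGF, a matricellular protein, was called as higher with the block, at 0.67, at a list median of 0.08.

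In the remaining lists no gene was called by limma with or without the block. The medians were 0.04 for 12 SR proteins, -0.01 for 16 nonsense-mediated decay factors, 0.13 for 27 p53 targets, 0.13 for 21 apoptosis regulators, 0.15 for 21 genes of the unfolded protein and integrated stress response and -0.14 for 21 NRF2 targets. They were 0.02 for 20 NF-kB and inflammatory genes, 0.10 for 17 epithelial genes, -0.01 for 25 glycolysis and hypoxia genes, 0.04 for 37 cytosolic ribosomal proteins and 0.05 for 11 histones. With 1 v1 library left out, the medians of 15 of all 25 lists with 8 or more tested members took either sign. The stress response median was -0.03 without v1 wild-type replicate 2 and 0.33 without v1 wild-type replicate 1, and the NRF2 median was -0.01 without v1 S34F replicate 2 and -0.28 without v1 S34F replicate 1. At an unadjusted p under 0.05, 4 of the p53 targets and 4 of the stress response genes were higher and 0 lower in each. Of all genes, 4.41% were higher and 5.52% lower. Counts went the other way for the NRF2 targets, with 4 lower and 1 higher, and for the peroxisomal list, with 6 lower and 2 higher. GADD45A, a growth arrest gene, had 86.36 and 133.3 FPKM in v1 S34F, against 71.5 and 55.59 FPKM in v1 wild type (log2 0.76, adjusted p = 0.39), and DDIT3, the stress factor CHOP, had 67.29 and 95.86 FPKM, against 46.63 and 36.33 FPKM (log2 0.95, adjusted p = 0.40). Among the A549 epithelial markers 7 of 8 lay below wild type, at a median of -0.25, which was 0.02 without v1 S34F replicate 2 and -0.39 without v1 S34F replicate 1, led by AKR1B10, an aldo-keto reductase, at -0.43 (adjusted p = 0.27). The 1 fibroblast marker and the 1 leukocyte and endothelial marker tested had 0.04 and -0.18. Genes of the mitochondrial genome, read here as a mark of RNA quality, summed to 42660.1 and 71316.8 FPKM in v1 S34F, against 42333.6 and 57211.8 FPKM in v1 wild type. All 15 lay above wild type at a median of 0.18, which was 0.52 without v1 S34F replicate 1 and -0.23 without replicate 2. Their part in the other results was not tested.

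**Figure D5:**
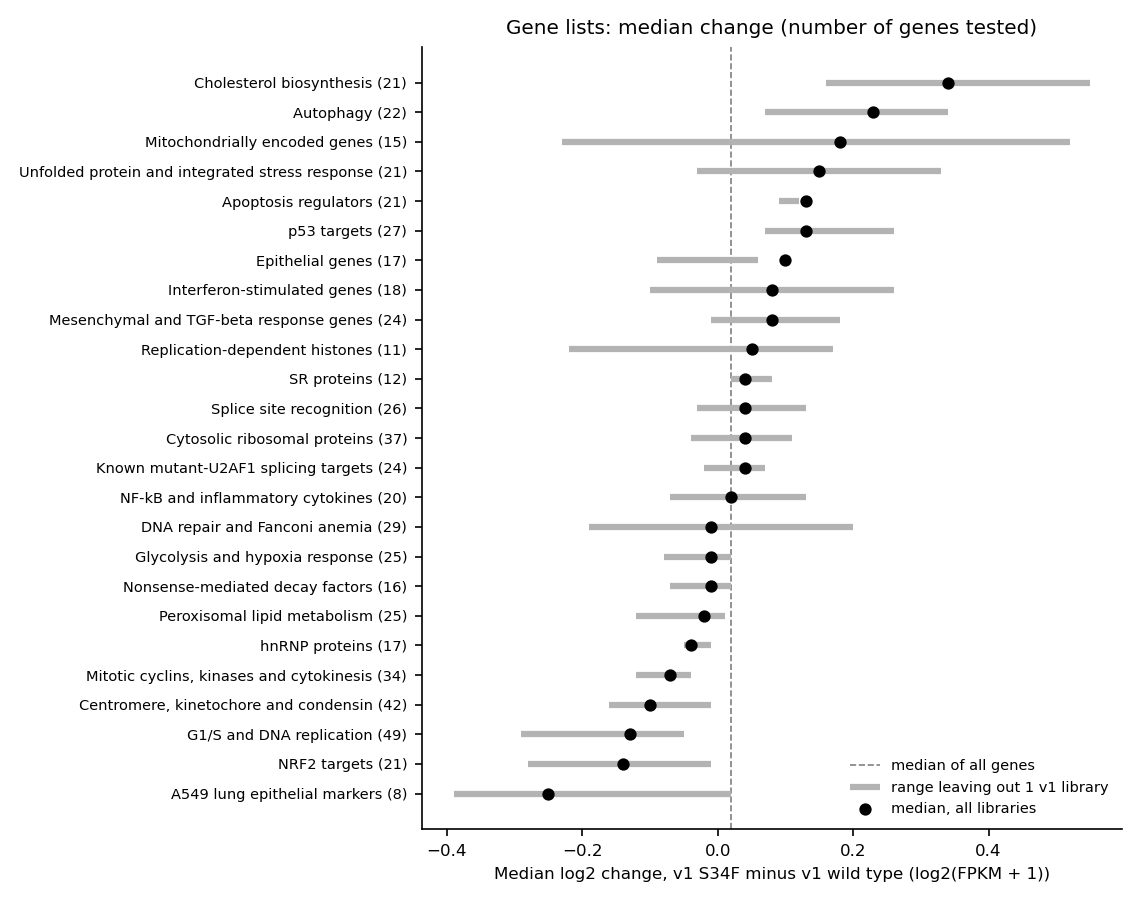
Median log2 change, on the log2(FPKM + 1) scale, of each gene list in v1 S34F against v1 wild type. Dots are medians over the tested members, grey bars run from the lowest to the highest median with 1 v1 library left out, and the dashed line is the median of all genes, 0.02. The cholesterol list, at 0.34 with a bar from 0.16 to 0.55, lies above the line throughout, and the bar of the mitochondrially encoded genes, from -0.23 to 0.52, is the widest of the lists with 10 or more tested members.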

How the data were processed

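Per the submitters' processing notes, reads were handled with Trimmomatic 0.30 and TopHat2 2.0.12 on build GRCh37. Quantifier and annotation release: not given in the sources used here. As the file headers show, the deposited tables give an FPKM per isoform for 195553 isoforms of 57756 genes, and no scaling by the authors between libraries is recorded. They hold no read counts, so no count model was used, and relative depth came from the coverage deposited beside FPKM. That depth assumes that coverage is proportional to FPKM within a library, which the column headers do not state and which was not checked.

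Isoform FPKM values were summed for each gene. Genes with a mean of at least 1 FPKM numbered 14244, and leaving out genes with an estimate not marked OK (14 in the files) gave 14233. Their log2(FPKM + 1) values were fitted in limma 3.58.1 (R 4.3.3) with an intensity trend. The fit had a mean per group for the 7 groups, and the 14 libraries shared its spread (7 residual and 3.92 prior degrees of freedom). Changes on this scale understate those of genes with low FPKM. Isoform usage was tested in the same way, without the trend, for the 41727 isoforms (11666 genes) whose mean usage was 5 to 95 percent. Benjamini-Hochberg adjustment of p-values ran over all features, and an adjusted p under 0.05 was called. The genes script was tested on simulated data.

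Acceptor usage was computed from 102288 of 116194 isoforms, those equal in identifier, gene and length to GENCODE release 29, where the isoforms that span an acceptor had a mean of at least 1 FPKM in sum. Acceptors were kept where mean usage over all 14 libraries, S34F ones included, was 5 to 95 percent. A base at -3 was read for 52.4% of acceptors from transcripts that cover it, and 99.4% of these had AG next to the exon, which left 16340 acceptors in 6864 genes. These are mostly alternative sites. A genome sequence was not used here. Gene coordinates are GRCh37, as deposited, and acceptor coordinates are GRCh38.

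The main fit did not pair the libraries by replicate number, and limma p-values given with no other setting named come from it. The residuals of same-numbered libraries were correlated in all 21 pairs of groups (0.16 to 0.57, and 0.44 for v1 S34F with v1 wild type). A fit with the number as a block was therefore run beside the fit without it. The named genes are U2AF1, U2AF2 and CCNA2, the 12 largest called changes in each direction whose groups do not overlap, with an isoform of at least 300 bases and no clone-type symbol, the 6 largest losses with T and gains with C among acceptors with an unadjusted p under 0.01, up to 4 members of a list by smallest p, and the 4 smallest p for the difference between constructs. The members, gene lists and rules were chosen with earlier results of these data known. Figures were drawn with matplotlib 3.10.9. A few genes and their results are not reported here.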

Additional observations from a re-analysis of the deposited data

Results flagged for a closer look

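The change with S34F differed between v1 and v3 at 5 acceptors after adjustment over all 31388 (0.0159%), in 2 genes. At the KLHL22 acceptor on chromosome 22 (20456467, GRCh38), in a gene of a ubiquitin ligase adaptor, usage was 98.02% and 99.44% in v1 S34F and 7.821% and 12.01% in v1 wild type, against 4.486% and 0% in v3 S34F and 0% and 15.84% in v3 wild type. The difference between the constructs was 94.5 points (SE 10.5, limma adjusted p = 0.049). With the replicate block its adjusted p was 0.12, and with 1 v1 library left out 0.069 to 0.20. At 4 acceptors of CMSS1 on chromosome 3 (100011703, 100023319, 100025428 and 100039775), which belong to 1 isoform, usage was 0% and 1.671% in v1 S34F and 4.238% and 5.073% in v1 wild type. There it was v3 that moved, with 99.78% and 99.91% in v3 S34F and 0.9984% and 0% in v3 wild type. The difference was -103.2 points (SE 3.8, adjusted p = 3.7e-06, 1.4e-05 with the replicate block) at a mean of 1.95 FPKM over the isoforms that span these sites.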

How the results depend on the processing

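With 1 v1 library left out, the genes called ranged from 3 to 37 (25 with all libraries), isoforms from 7 to 42 (1), acceptors with T used less from 58 to 203 (120) and used more from 12 to 25 (20), acceptors with C used more from 95 to 161 (150) and used less from 50 to 120 (53). For the difference between v1 and v3 they ranged from 2 to 3 genes and 3 to 8 isoforms (0 and 0), and for the unproductive share from -1.17 to 2.83 points (0.83). The highest counts of genes and of both losses came without v1 S34F replicate 1, and the lowest count of T losses without v1 S34F replicate 2. The cause was not tested. With replicate number as a block, genes rose to 309, 80 of them higher, acceptors with T used less to 181 and with C used less to 93, and none of the other summary counts given here moved by over 1.5 times. A fit on the 4 v1 libraries alone, which has few degrees of freedom, called 0 genes and 0 isoforms by limma, with 925 genes and 3234 isoforms at an unadjusted p under 0.05. Without the expression minimum 51 genes were called, 22 of them higher. With isoforms of genes of at least 5 FPKM 43 were called, and with an arcsine transform 0, with 3326 at an unadjusted p under 0.05. A pseudocount of 0.1 gave 1 gene for the difference. The other 37 of these summary values were within 1.5 times of the value with all libraries or, for the unproductive share, within the spread between libraries, though that share turned to -1.17 points without v1 S34F replicate 2 and -0.51 points without v1 wild-type replicate 1. Among 312 values of the 29 named genes under an alternative, 1 changed sign: U2AF1, whose log2 change ranged from -0.25 to 0.57 with 1 v1 library left out. Depth as read numbers is unknown.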
